A study of Mus musculus with 45 samples.

Results

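Genes that laboratories commonly use as internal references in PCR were followed through a dioxin dose series in mouse liver: *Actb*, *Gapdh*, *Hprt*, *B2m*, *Tbp*, *Pgk1*, *Ppia* and *Gusb*. These 8 were picked by name as common reference genes, by no rule on their values, out of 39179 genes counted. Earlier results of these data were known at that point. A gene was tested if any mouse had over 4 reads on it, which left 17464 genes and all 8 references. Liver RNA came from 45 female C57BL/6 mice, 5 in each of 9 groups, gavaged every 4 days for 28 days from postnatal day 28 with sesame oil alone or with TCDD in that oil, at 1 of 8 doses between 0.01 and 30 µg/kg spaced about 3-fold apart. TCDD (2,3,7,8-tetrachlorodibenzo-*p*-dioxin) is a persistent ligand of the aryl hydrocarbon receptor. For every group the labels instead describe daily dosing and ovariectomized mice. The methods of the study mention neither, and their schedule is the one given here.

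A reference gene is chosen because its product is needed by nearly every cell, and its RNA level is then assumed to be the same in treated and control tissue. *Actb* encodes the cytoskeletal protein beta-actin. *Gapdh* and *Pgk1* encode consecutive enzymes of glycolysis, and *Hprt* a purine salvage enzyme. *B2m* is the light chain of major histocompatibility complex (MHC) class I molecules. *Tbp*, the TATA-binding protein, starts transcription, *Ppia* is the prolyl isomerase cyclophilin A, and *Gusb* is a lysosomal beta-glucuronidase. Several of these pathways are themselves regulated in liver, for example glycolysis by feeding and MHC class I by interferons, so stability has to be measured in each setting. The study scaled its own PCR measurements to the geometric mean of a panel that included *Actb*, *B2m*, *Gapdh*, *Hprt*, the ribosomal protein gene *Rps13* and *Rn18s* (18S ribosomal RNA). *Rps13* is therefore given beside the 8 genes, and *Rn18s* matched no gene symbol.

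How much of each transcript can be placed by a 50-base read differed widely among the 8 genes, and the PCR primers of the study show it at single sites. Each primer is printed 5′ to 3′, and capitals mark bases that differ from the closest site in another gene that shares 50-base words with the target. A primer wholly in lower case either has a perfect site in such a gene (*Actb*, *Gapdh*, the *Rps13* reverse primer) or has no such gene at all (*B2m*, *Hprt*).
Actb forward: gctacagcttcaccaccaca
Actb reverse: tctccagggaggaagaggat
Gapdh forward: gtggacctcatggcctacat
Gapdh reverse: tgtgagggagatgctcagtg
B2m forward: atgggaagccgaacatactg
B2m reverse: cagtctcagtgggggtgaat
Hprt forward: aagcctaagatgagcgcaag
Hprt reverse: ttactaggcagatggccaca
Rps13 forward: tTtcctgTGcCgTTtcctac
Rps13 reverse: cacgtcgtcagacgtcaact
The *Gapdh* pair bounds 125 bases in exon 7 and has perfect sites for both primers in 5 other annotated genes, all predicted loci with Gm names. The *Actb* pair bounds 123 coding bases in exon 4, each of its primers has a perfect site elsewhere, and no other gene held both. The *B2m* pair bounds 177 coding bases in exon 2, and the *Hprt* pair 104 bases in exon 9. Neither *B2m* nor *Hprt* shared a word with another annotated gene outside its own locus. The forward primer of *Rps13* had 6 mismatches to its closest such site and the reverse primer 0.

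The same sharing bears on which RNA-Seq reads were counted, because the deposited counts hold uniquely aligned reads alone. Genes that overlap the locus of the target were left out of the word search. Every 50-base word of the *Hprt*, *B2m*, *Tbp* and *Gusb* mRNAs was absent, within 2 mismatches, from the annotated transcripts of all remaining genes. For *Actb* 44.9% of the words of the mRNA and 24.5% of those of its coding part were found nowhere else. The coding parts of *Gapdh*, *Pgk1* and *Ppia* held no such word, and their whole mRNAs held 9.1%, 32% and 38.4%. Most of the other genes that share their words are processed copies: 321 of 332 for *Gapdh*, 49 of 53 for *Ppia* and 7 of 7 for *Pgk1* are pseudogenes. At this limit no read from the coding part of these 3 genes could be placed. *Ppia* is annotated over 3508 exonic bases against 1170 in the mRNA searched. Genomic copies that carry no annotation could not be searched, so the unique shares are upper limits.

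**Figure D1:**
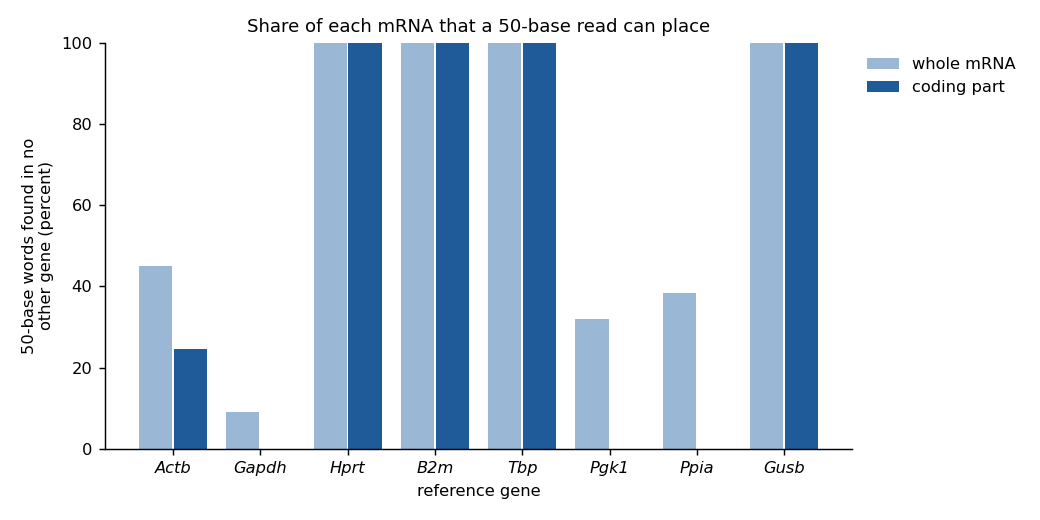
The bars give the percent of 50-base words (y axis, from 0 to 100) of each reference gene (x axis) that occur within 2 mismatches in no other annotated mouse gene outside its own locus, light for the whole mRNA and dark for the coding part. *Hprt*, *B2m*, *Tbp* and *Gusb* stand at 100, *Actb* at 44.9 and 24.5, and *Gapdh*, *Pgk1* and *Ppia* have no visible dark bar because the coding value is 0.

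The genes lie on GRCm38 at chr5:142903115-142906754, minus strand (*Actb*), chr6:125161715-125166467, minus (*Gapdh*), chrX:52988137-53021659, plus (*Hprt*), chr2:122147686-122153083, plus (*B2m*), chr17:15499888-15528379, plus (*Tbp*), chrX:106187100-106203699, plus (*Pgk1*), chr11:6415443-6419817, plus (*Ppia*), and chr5:129989011-130003049, minus (*Gusb*). Exons of *Gapdh* overlap those of *Iffo1*, and exons of *Tbp* overlap those of *Pdcd2*, so reads there could not be told apart without strand.

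Each mouse had between 11767284 and 56509899 reads on genes. Reads per mouse ranged from 17241 to 91329 for *B2m* and from 19 to 188 for *Gapdh*. *Cyp1a1*, the standard marker of aryl hydrocarbon receptor activation, checked the treatment: its level was 7.50 ± 6.32 CPM (counts scaled to 1 common library size, with the library sizes corrected by the trimmed mean of M values, TMM) in the vehicle mice and 7627 ± 1186 CPM at 30 µg/kg (SD, n = 5). All 11 hepatocyte markers listed were detected in every group. Replicate 2 of the 0.01 µg/kg group stood apart, with 49 reads of *Xist*, the RNA of the inactive X chromosome, or 2.88 CPM against 1132 to 2807 CPM in the other 44 libraries, while 4 Y-linked genes had 0 reads in all 45. This touches the X-linked *Hprt* and *Pgk1*. In that mouse *Hprt* was 70.6 CPM, inside the 64.9 to 75.6 CPM of the other 4 mice of its group, and *Pgk1* was 10.6 CPM, above their 8.28 to 9.44 CPM. A difference between groups in bulk tissue cannot tell fewer cells of a type from less RNA per cell.

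Per kilobase of mRNA the 8 genes spanned a wide range in the vehicle livers, in CPM after TMM scaling. The order was *B2m* at 2073 ± 346 CPM per kilobase (SD, n = 5), *Actb* at 151 ± 30.7, *Hprt* at 55.4 ± 4.37, *Gusb* at 10.5 ± 0.734, *Tbp* at 8.10 ± 1.15, *Pgk1* at 5.99 ± 1.31, *Ppia* at 5.95 ± 1.10 and *Gapdh* at 3.18 ± 1.42. *Pgk1* and *Ppia* did not differ beyond their spread. The last 3 are the genes whose coding parts held no unique word within 2 mismatches. For them, and in part for *Actb*, the values are levels of the countable reads and not of the mRNA. Reads were counted over all annotated exons but divided by the length of the mRNA searched. For *Tbp* these lengths were 13576 and 1891 bases, for *Gapdh* 4133 and 1272 and for *Gusb* 4548 and 2687. They were closer for *Actb* and *Pgk1* and equal for *Hprt* and *B2m*. The order of *Gusb* and *Tbp* is therefore not secure.

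**Figure D2:**
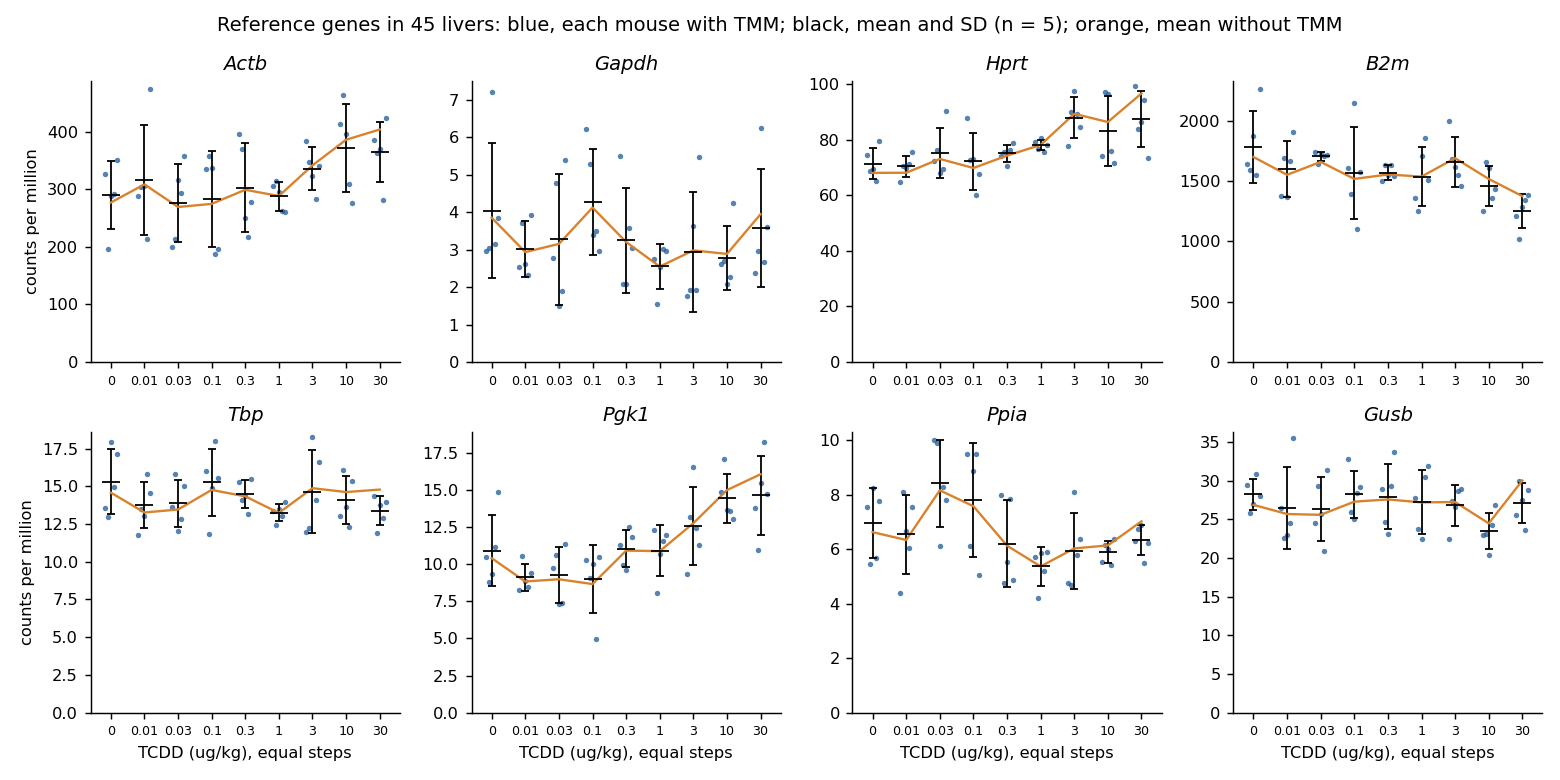
CPM of the 8 reference genes (y axes, each from 0) against TCDD dose in equal steps (x axis), with 1 blue point for each of the 45 mice after TMM scaling, the group mean and SD in black (n = 5) and the group mean without TMM in orange. *B2m* ends at 1250 CPM at 30 µg/kg against 1783 CPM in the vehicle, *Hprt* and *Pgk1* end above the vehicle, and the orange line passes above the black mean at the highest doses in every panel.

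Whether a gene stayed flat or drifted was judged in each of 8 comparisons of a dose with the vehicle. With TMM scaling and the edgeR quasi-likelihood test, 3 of the 8 genes changed at 30 µg/kg at an adjusted p-value under 0.05, against 29.6% of all genes tested. *Hprt* and *Pgk1* were higher, as were 15.5% of all genes, and *B2m* was lower, as were 14.1%. *Hprt* also rose at 3 µg/kg, where it was the only member of 8 called. Of all genes 7.54% were called there, 4.34% upward. A gene was termed flat if it was called at no dose and the 95% confidence interval of its change lay within 1.5-fold at all 8 doses, which held for *Tbp* and *Gusb*. All 8 intervals of *Hprt* also lay within 1.5-fold, so its called changes were small. *Actb*, *Gapdh* and *Ppia* were neither called at any dose nor contained in that band. Among the 7710 genes with a mean of at least 10 CPM, 44.3% were flat by the same rule and 36.3% were called at 1 dose or more.

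No member was called by edgeR at the 5 lowest doses or at 10 µg/kg, nor by DESeq2. In rising order of dose, the shares of all genes called there were 0%, 0.0573%, 0.0229%, 0.464%, 1.76% and 15.9%. At an unadjusted p under 0.05 the members were 0 at the 4 lowest doses, 1 at 1 µg/kg (*Ppia*) and 4 at 10 µg/kg (*Hprt*, *B2m*, *Pgk1* and *Gusb*). Of the 17464 genes tested, 2270 passed that unadjusted limit at 1 µg/kg and 5049 at 10 µg/kg. A test of any difference among the 9 groups called 2 of 8, *Hprt* (adjusted p = 0.01586) and *Pgk1* (adjusted p = 0.0008808), against 28.8% of all genes. A linear trend over the dose steps called 4 of 8, *Hprt*, *Pgk1* and *Actb* upward and *B2m* downward. Of all genes 40.5% had a called trend, 20.8% upward and 19.7% downward. The *Actb* trend was lost in 12 of 45 fits that left out 1 mouse: replicate 2 of the vehicle, 4 of 0.01 µg/kg, 1 or 2 of 0.03 µg/kg, 1 of 3 µg/kg, 1, 2 or 3 of 10 µg/kg, or 1, 2, 3 or 5 of 30 µg/kg. It was also lost when every gene with at least 1 read was tested.

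**Figure D3:**
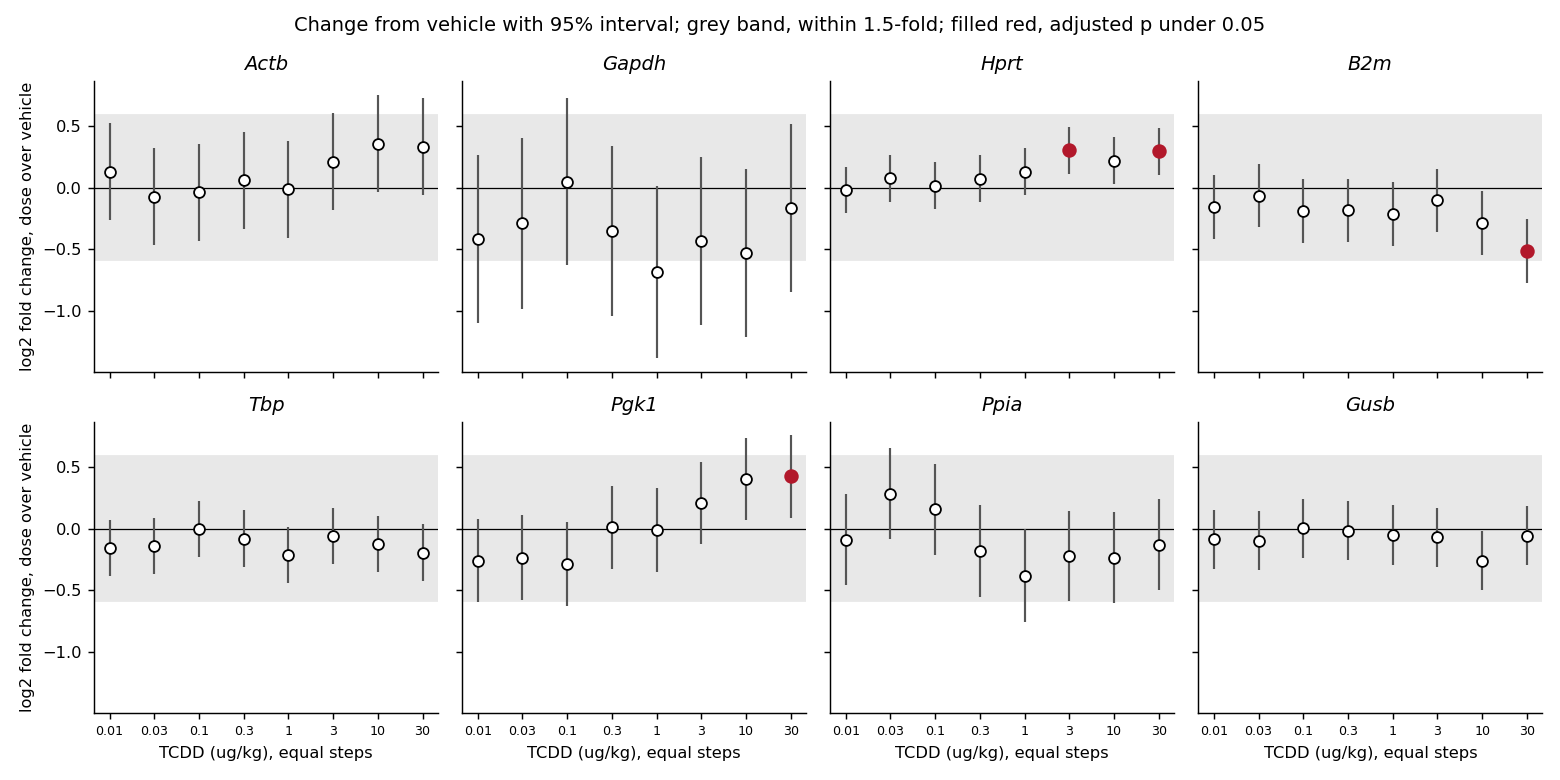
Log2 fold change of each reference gene from the vehicle (y axis, shared) at each TCDD dose (x axis, equal steps) with its 95% confidence interval, the grey band marking changes within 1.5-fold and filled red points an adjusted p under 0.05. *Tbp*, *Gusb* and *Hprt* keep the whole interval in the band at all 8 doses, *Hprt* with 2 red points, the interval of *B2m* crosses its edge at 30 µg/kg alone, and the intervals of *Gapdh* reach beyond the band at every dose.

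*B2m* had the largest called change of the 8 genes. The 5 vehicle mice stood at 1548, 1589, 1640, 1872 and 2266 CPM, and the 5 mice given 30 µg/kg at 1023, 1214, 1284, 1345 and 1382 CPM. The groups did not overlap, which held for 9.57% of all genes in the lower direction. The log2 fold change was -0.51 (SE 0.127, 95% interval -0.77 to -0.26, adjusted p = 0.001837), or 29.9% lower. At 10 µg/kg *B2m* was 1460 ± 168 CPM against 1783 ± 298 CPM (SD, n = 5), a change of -0.29 that was not called (adjusted p = 0.1202). The fitted trend fell by 0.34 on the log2 scale over the 8 dose steps (adjusted p = 0.004213), and this trend was not called with library size alone.

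Other genes of MHC class I presentation were read from a list of 13. At 30 µg/kg 4 were lower, none was higher and 9 were not called, with a median log2 fold change of -0.17 against 0.019 over all genes. Of all genes tested 15.5% were higher and 14.1% lower, and these shares stand beside each list below. *H2-Q10*, a liver-secreted class I heavy chain, fell by 0.75 on the log2 scale (adjusted p = 2.784e-07). *H2-K1*, a classical heavy chain, went from 1002 ± 110 to 791 ± 87.6 CPM (SD, n = 5, adjusted p = 0.01527). *Pdia3*, a chaperone of the peptide-loading complex, fell by 0.37 (adjusted p = 0.02324). The class I heavy chains are near-identical copies of one another, so their counts are uncertain. The 3 genes whose log2 CPM followed *B2m* most closely over the 45 mice, of 9497 genes with a mean of at least 5 CPM, were *H2-K1* (Pearson r = 0.841), the proteasome activator gene *Psme1* (r = 0.781) and the Ras-related gene *Rras* (r = 0.778). These correlations describe libraries that share doses and scaling.

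Leukocytes carry much *B2m*, and their markers moved the other way. Of 15 macrophage and leukocyte markers 9 were higher at 30 µg/kg and none was lower, and their summed level was 152 to 252 CPM in the vehicle mice and 214 to 568 CPM at 30 µg/kg. *Cd74*, the invariant chain of MHC class II, rose by 2.11 on the log2 scale (adjusted p = 2.843e-05). Of 11 hepatocyte markers 7 were lower and none was higher, with a sum of 155600 ± 14670 CPM in the vehicle and 132700 ± 20330 CPM at 30 µg/kg (SD, n = 5). Of 8 stellate markers 5 were higher, with sums of 337 ± 45.1 and 664 ± 98 CPM (SD, n = 5), and of 8 endothelial markers 5 were higher, with sums of 187 ± 19.4 and 267 ± 46.7 CPM. None of 6 biliary markers was called. The part of these cell types in the changes of the reference genes was not tested.

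*Hprt* was higher at 3 and at 30 µg/kg. The vehicle mice stood at 65, 68.8, 69.3, 74.5 and 79.5 CPM, and the mice given 30 µg/kg at 73.4, 83.9, 86.2, 94.3 and 99.1 CPM. Only 1 treated mouse lay inside the vehicle range and 4 lay above it. The log2 fold change was 0.29 (SE 0.0933, 95% interval 0.10 to 0.48, adjusted p = 0.01522), or 22.4% higher. At 3 µg/kg the mean was 87.9 ± 7.33 CPM, a log2 fold change of 0.30 (adjusted p = 0.03949). At 10 µg/kg it was 83.1 ± 12.6 CPM, with a log2 fold change of 0.22 (adjusted p = 0.1074). The call at 30 µg/kg was lost without replicate 1 of that dose (log2 fold change 0.24, adjusted p = 0.06108), and that at 3 µg/kg was lost in 7 of 10 fits that left out 1 vehicle or 3 µg/kg mouse, all but those without vehicle replicate 1, vehicle replicate 5 or replicate 1 at 3 µg/kg.

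The purine salvage list, of which 9 of 10 genes matched, went in both directions at 30 µg/kg, with 3 genes higher, 3 lower and 3 not called. *Aprt*, which salvages adenine as HPRT salvages hypoxanthine and guanine, went from 19.8 to 35.6 CPM (adjusted p = 9.011e-06). *Xdh*, which oxidizes hypoxanthine to uric acid, rose by 0.93 on the log2 scale (adjusted p = 2.118e-09). *Prps1*, which makes the phosphoribosyl donor that HPRT uses, fell by 0.51 (adjusted p = 3.256e-05), and *Adk*, adenosine kinase, fell by 0.64 (adjusted p = 9.928e-05). The genes most like *Hprt* over the 45 mice were *Perp* (r = 0.795), *Fbxo36* (r = 0.780) and *Emc1* (r = 0.752).

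*Pgk1* ended higher at 30 µg/kg, but its call sat at the threshold. The vehicle mice stood at 8.78, 9.37, 10.5, 11.1 and 14.9 CPM, and the treated mice at 10.9, 13.8, 14.8, 15.5 and 18.3 CPM, so the groups overlapped and 2 treated mice lay above all vehicle mice. The log2 fold change was 0.42 (SE 0.165, 95% interval 0.09 to 0.75, adjusted p = 0.04919), or 33.8% higher. Without the 0.01 µg/kg mouse with few *Xist* reads it was 0.41 (adjusted p = 0.05654), and leaving out 1 vehicle or 30 µg/kg mouse ended the call in 8 of 10 fits, all but those without vehicle replicate 5 or replicate 2 at 30 µg/kg. Group means were 9.13 ± 0.918, 9.28 ± 1.86 and 8.98 ± 2.29 CPM at the 3 lowest doses and highest at 30 µg/kg, 14.7 ± 2.66 CPM (SD, n = 5). The mean at 0.1 µg/kg holds 1 mouse at 4.996 CPM, against 9.08 to 10.5 CPM in the other 4. Its trend over the dose steps amounted to 0.64 on the log2 scale (adjusted p = 5.614e-05). These counts came from 93 to 637 reads per mouse.

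*Gapdh*, the other glycolytic reference, was the noisiest of the 8 genes. Vehicle mice stood at 2.97, 3.05, 3.16, 3.84 and 7.21 CPM, and mice given 30 µg/kg at 2.39, 2.67, 2.98, 3.61 and 6.26 CPM. In each group 1 mouse was well above the other 4, and of these only the vehicle mouse is among the flagged results below. The log2 fold change was -0.16 with a 95% interval of -0.84 to 0.51 (adjusted p = 0.7575). Its group means ran from 2.56 ± 0.599 CPM at 1 µg/kg to 4.27 ± 1.41 CPM at 0.1 µg/kg, and none of the 8 intervals stayed within 1.5-fold. The pseudogenes that share its words summed to 20.1 CPM in the vehicle and 12.3 CPM at 30 µg/kg without TMM, more than the 3.85 and 3.95 CPM counted on *Gapdh* itself. The share of alignments that were not unique, over all reads, was 46.6% in the vehicle and 40.5% at 30 µg/kg, and its part in these values was not tested.

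Of the other 18 glycolysis genes listed 6 were higher, 7 lower and 5 not called at 30 µg/kg, with a median log2 fold change of -0.20, and 3 were flat. *Pkm*, the pyruvate kinase of non-hepatocyte and proliferating cells, went from 5.06 ± 1.17 to 25.1 ± 1.64 CPM (SD, n = 5, adjusted p = 7.304e-11). *Pklr*, the liver pyruvate kinase, went from 314 ± 83.3 to 45.3 ± 6.50 CPM (adjusted p = 2.845e-12). *Hk2* and *Hk1*, hexokinases of low expression in hepatocytes, rose by 1.64 and 1.44 on the log2 scale (adjusted p = 5.539e-05 and 6.124e-05). *Pfkl*, the liver phosphofructokinase, fell by 0.58 (adjusted p = 0.000115). The genes most like *Pgk1* were *Mrps7* (r = 0.847), *Abhd17a* (r = 0.832) and *Txn2* (r = 0.829), and those most like *Gapdh* were *Zfp12* (r = 0.753), *Phf23* (r = 0.745) and *Ctcflos* (r = 0.737).

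*Actb* had a called upward trend but was called at no single dose. The vehicle mice stood at 196, 288, 292, 326 and 350 CPM and the 30 µg/kg mice at 281, 364, 370, 385 and 423 CPM, with 4 of 5 treated mice above all vehicle mice. The log2 fold change was 0.33 (SE 0.194, 95% interval -0.06 to 0.72, adjusted p = 0.2095). It was 0.35 at 10 µg/kg (adjusted p = 0.2246), 0.21 at 3 µg/kg and between -0.073 and 0.13 at the 5 lower doses. The trend amounted to 0.34 over the dose steps (adjusted p = 0.03908).

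Of 15 other actin and cytoskeleton genes 4 were higher at 30 µg/kg and none was lower, with a median log2 fold change of 0.64. *Flna*, which crosslinks actin filaments, went from 19.5 to 32.4 CPM (adjusted p = 0.002223). *Acta1*, the skeletal muscle actin, had 0 or 1 read in each vehicle mouse and 22 to 87 reads at 30 µg/kg (adjusted p = 0.00218). *Actc1*, the cardiac actin, had 0 reads in the vehicle mice and 0 to 5 at 30 µg/kg (adjusted p = 0.0145), too few for a fold change. *Actg1*, the gamma-actin that accompanies beta-actin in most cells, stood at 0.863 ± 0.596 CPM in the vehicle and 1.53 ± 0.794 CPM at 30 µg/kg and was not called. It had 6 to 29 reads in the vehicle mice and 8 to 72 at 30 µg/kg, and it shares 50-base words with *Actb*. How much of its own mRNA is unique was not computed, so neither its low level nor the missing call can be read as that of the mRNA. *Tuba1c* (r = 0.818) and *Slc35b1* (r = 0.757) were among the genes most like *Actb* over the 45 mice.

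*Tbp* and *Gusb* were the flat pair. Vehicle values of *Tbp* were 13, 13.6, 14.9, 17.1 and 17.9 CPM and values at 30 µg/kg were 11.9, 12.9, 13.8, 13.95 and 14.4 CPM. Its changes ran from -0.21 at 1 µg/kg to -0.0056 at 0.1 µg/kg, so every dose mean was at or below the vehicle, and at 30 µg/kg it was -0.19 (95% interval -0.42 to 0.03, adjusted p = 0.1986). For *Gusb* the vehicle values were 25.8, 26.99, 28.0, 29.4 and 30.8 CPM and those at 30 µg/kg were 23.6, 25.6, 27.5, 28.9 and 29.9 CPM. Its change at 30 µg/kg was -0.058 (95% interval -0.30 to 0.18, adjusted p = 0.758). The furthest *Gusb* moved was at 10 µg/kg, to 23.5 ± 2.32 from 28.2 ± 1.97 CPM (SD, n = 5, log2 fold change -0.26, adjusted p = 0.1335), and a fit of the vehicle and 10 µg/kg mice alone called it.

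*Ppia* was called at no dose. Its vehicle mice stood at 5.47, 5.69, 7.57, 7.78 and 8.26 CPM and its 30 µg/kg mice at 5.52, 6.25, 6.31, 6.75 and 6.90 CPM, all within the vehicle range. The group mean was highest at 0.03 µg/kg, 8.43 ± 1.61 CPM, and lowest at 1 µg/kg, 5.38 ± 0.714 CPM. The change at 1 µg/kg was -0.38 (95% interval -0.75 to -0.0079, adjusted p = 0.3719) and that at 30 µg/kg -0.13 (adjusted p = 0.6338). DESeq2 called *Ppia* in the test of any difference among groups, where edgeR gave an adjusted p of 0.06764. The genes most like it were *Hnrnph1* (r = 0.815), *Srsf6* (r = 0.739) and *Dusp11* (r = 0.737), of which the first pair encode splicing factors.

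The families of the 3 uncalled genes with other roles were mixed. Of 16 subunits of the general transcription machinery 2 were higher and 2 lower at 30 µg/kg, among them *Gtf2b*, transcription factor IIB, up by 0.42 (adjusted p = 0.002548), and *Taf4*, a partner of TBP in TFIID, which fell by 0.47 (adjusted p = 0.0009916). Among 12 other cyclophilins *Ppic* was higher, from 2.94 to 6.77 CPM (adjusted p = 5.842e-05), and 4 were lower, such as the endoplasmic reticulum cyclophilin *Ppib*, which fell by 0.37 (adjusted p = 0.003433). Among 18 other lysosomal hydrolases 5 were higher and 6 lower. *Man2b1*, the lysosomal alpha-mannosidase, went from 102 to 191 CPM (adjusted p = 3.382e-12) and the protease gene *Ctsl* from 696 to 324 CPM (adjusted p = 3.235e-11). *Srsf11*, *Isg20l2* and *Tbpl1* were most like *Tbp* (r = 0.758, 0.758 and 0.757), and *Slc25a51*, *Mapk14* and *Fmo5* most like *Gusb* (r = 0.724, 0.722 and 0.695).

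Scaling moved all 8 genes with the bulk of genes. The TMM factor averaged 0.952 ± 0.011 in the vehicle group and rose to 1.105 ± 0.060 at 30 µg/kg (SD, n = 5). Without it, with counts divided by library size alone, the median log2 change of all genes at 30 µg/kg went from 0.019 to 0.23, and the share of calls that were upward went from 52.3% to 80.3%. In plain CPM *Actb* went from 277 ± 58.01 to 404 ± 65.5 CPM (SD, n = 5), *Hprt* from 68.1 ± 6.05 to 96.6 ± 12.9 CPM and *Pgk1* from 10.4 ± 2.32 to 16.1 ± 2.21 CPM, and all 3 were called. *B2m* went from 1699 ± 294 to 1374 ± 101 CPM and was no longer called (adjusted p = 0.05834). *Tbp* was 14.6 ± 2.09 and 14.8 ± 1.23 CPM, *Gapdh* 3.85 ± 1.72 and 3.95 ± 1.72 CPM, *Ppia* 6.63 ± 1.27 and 7.03 ± 0.889 CPM, and *Gusb* 26.9 ± 1.88 and 30.0 ± 3.85 CPM, and none of the 4 was called. Their sign changed from below to above the vehicle with the upward shift of all genes, which was larger than their changes under TMM. With the size factors of DESeq2 or with upper-quartile factors the same 3 genes were called at 30 µg/kg as with TMM.

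**Figure D4:**
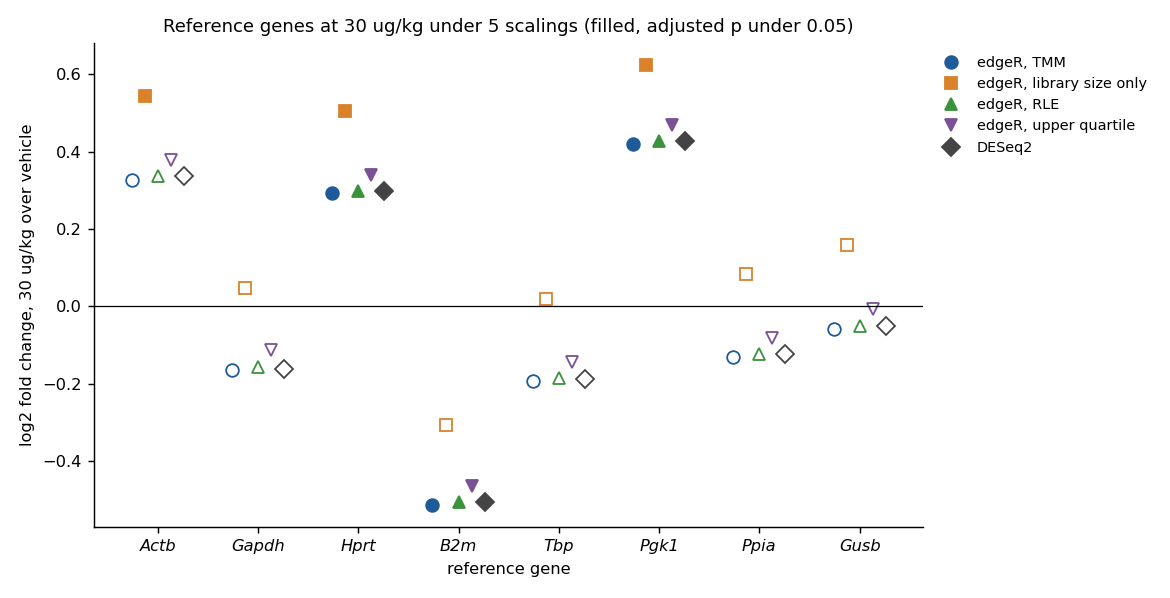
Log2 fold change at 30 µg/kg (y axis) of each reference gene (x axis) under TMM, library size alone, relative log expression factors and upper-quartile factors in edgeR and under DESeq2, filled where the adjusted p was under 0.05. Squares (library size alone) lie above the other symbols for all 8 genes, which places *Gapdh*, *Tbp*, *Ppia* and *Gusb* on the other side of 0 and leaves *B2m* unfilled.

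Ratios between reference genes need no library size. The *Actb* to *B2m* ratio was 0.123 to 0.199 in the vehicle mice and 0.209 to 0.356 at 30 µg/kg, a change of 1.80-fold. The *Hprt* to *B2m* ratio went from 0.0351 to 0.0454 in the vehicle to 0.0531 to 0.0820, or 1.73-fold. The *B2m* to *Pgk1* ratio was 139 to 199.8 in the vehicle and 73.6 to 93.7 at 30 µg/kg, or 0.523 of its vehicle level. In these 3 pairs, and in *Tbp* to *Pgk1*, the groups did not overlap. In the other 24 of the 28 pairs the groups overlapped. Of the 4 pairs, 3 use the same *B2m* values, and the share of all gene pairs whose groups do not overlap was not computed. Ratios within the pairs *Actb* and *Hprt* (1.04-fold), *Tbp* and *Gapdh* (1.01-fold, *Gapdh* over *Tbp*) and *Ppia* and *Gusb* (0.962-fold) moved least.

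**Figure D5:**
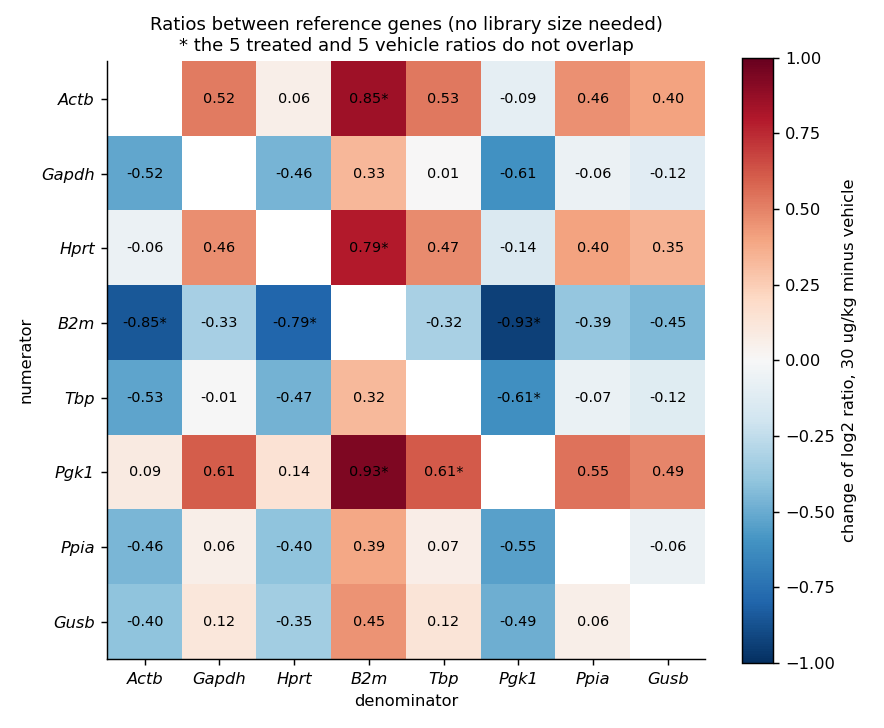
Each cell gives the change in the log2 ratio of the row gene to the column gene from vehicle to 30 µg/kg (colour scale from -1 to 1), computed from raw reads of 5 mice per group, with an asterisk where the 5 treated and 5 vehicle ratios do not overlap. The row of *B2m* is negative throughout, down to -0.93 against *Pgk1*, and its 3 asterisks stand under *Actb*, *Hprt* and *Pgk1*.

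Spread over all 45 mice ordered the genes differently from their fold changes. The coefficient of variation after TMM was 12.1% for *Tbp*, 12.3% for *Hprt*, 12.9% for *Gusb*, 15.8% for *B2m*, 22.2% for *Actb*, 23.1% for *Ppia*, 24.2% for *Pgk1* and 41.0% for *Gapdh*. *Hprt*, although it drifted, was thus as steady as the flat pair. The SD of its log2 values within groups was 0.141, the smallest of the 8, against 0.170 for *Tbp* and 0.186 for *Gusb*. Each was also set against genes within 2-fold of its mean level, among genes with a mean of at least 5 CPM. *Tbp* had 14.6% of these genes steadier than itself, *Hprt* 29%, *B2m* 31.0%, *Gusb* 34.6%, *Ppia* 64.1%, *Actb* 71.3%, *Pgk1* 77.2% and *Gapdh* 85.3%. *Gapdh* averaged 3.3 CPM, below that floor, so all the genes it was set against were more abundant. The floor also cut the lower part of the range of *Ppia*, at 6.6 CPM. The shares of *Gapdh* and *Ppia* are thus not fully matched for level. The mean SD of the log2 ratios to the 7 other genes, a measure that needs no scaling, was smallest for *Tbp* (0.320), *Hprt* (0.327) and *Gusb* (0.340) and largest for *Gapdh* (0.546).

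The average of the 8 genes moved less than several of its members. The mean log2 CPM of the 8 genes was 5.26 ± 0.184 in the vehicle and 5.26 ± 0.104 at 30 µg/kg (SD, n = 5), a difference of 0.0024, and its largest distance from the vehicle was -0.16 at 1 µg/kg. The 4 members without shared words (*Hprt*, *B2m*, *Tbp* and *Gusb*) averaged 0.12 lower. Without TMM the same sets were 0.21 and 0.096 higher. Neither average separated the 30 µg/kg mice from the vehicle mice.

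*Rps13*, from the panel of the study, could not be judged, since 1 to 22 reads per mouse were counted on it and 11.5% of its mRNA words were unique. Its log2 fold change at 30 µg/kg was 0.54 with a 95% interval of -0.40 to 1.47 (adjusted p = 0.4067). *Ppan*, *Kat2a* and *Trmt2a* were most like it (r = 0.616, 0.594 and 0.585).

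Dividing by a reference gene changes a fold by the inverse of the reference's own change. For the 4 members without shared words, a gene with no change at 30 µg/kg after TMM would read 1.43-fold against *B2m* and 0.817-fold against *Hprt*. It would read 1.14-fold against *Tbp* and 1.04-fold against *Gusb*, whose own changes were not called and which lie on the other side of 1 without TMM. The read ratio of *Cyp1a1* to each member rose from vehicle to 30 µg/kg by 2050-fold with *B2m*, 1640-fold with *Tbp*, 1500-fold with *Gusb*, 1180-fold with *Hprt* and 1070-fold with *Pgk1*. The log2 fold was 11.0 (SE 0.628) with *B2m* and 10.1 (SE 0.575) with *Pgk1*, and the gap between them is that of the *B2m* to *Pgk1* ratio given above.

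Other common reference genes gave a similar mixture. Of 30 listed, 3 were higher, 3 lower and 24 not called at 30 µg/kg, and 16 were flat by the 1.5-fold rule. Over all genes 15.5% were higher and 14.1% lower, and 44.3% of those with a mean of at least 10 CPM were flat. The list was not matched to these genes for level, and no difference from them was tested. Polyubiquitin *Ubb* rose from 69.2 to 113 CPM (adjusted p = 0.0004765), *Tubb5*, a beta-tubulin, from 36.6 to 57.8 CPM (adjusted p = 0.004699) and *Rplp0*, a ribosomal stalk protein, from 78.1 to 101 CPM (adjusted p = 0.0145). *Oaz1*, the polyamine regulator antizyme, fell by 0.60 on the log2 scale (adjusted p = 0.0006619), and *Sdha*, a subunit of succinate dehydrogenase, fell by 0.27 (adjusted p = 0.02033). *Ywhaz*, an adaptor protein, and *Polr2a*, the catalytic subunit of RNA polymerase II, were among the flat genes. The 5 steadiest of 2665 genes with a mean of at least 50 CPM were *Ociad1*, *Pmpcb*, *M6pr*, *Ywhab* and *Riok3*, with SDs of log2 CPM of 0.0751 to 0.0865 over the 45 mice, against 0.172 for *Hprt*, 0.229 for *B2m* and 0.333 for *Actb*. *Ociad1* was 131 CPM in the vehicle and 130 CPM at 30 µg/kg, and *M6pr*, a mannose 6-phosphate receptor, 86.4 and 83.0 CPM.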

How the data were processed

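Liver RNA-Seq of 45 mice was used. The deposited values are raw counts per gene, which the authors made from 1 x 50-base reads trimmed and aligned with Bowtie and TopHat 1.4.1 to GRCm38 and counted with HTSeq 0.6.1 on Ensembl genes, and reads aligned to more than 1 place were not counted on genes. Libraries were pooled at random for sequencing; the labels give no pools, so no within-pool value could be had. Rows that name no gene stayed out of library sizes and tests. Alignments tallied as not unique were 36.7 to 55.2% of all tallies, reads in no feature 4.9 to 8.8% and ambiguous reads at most 1.3%.

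Counts of genes with more than 4 reads in any mouse were scaled by TMM and tested in edgeR 4.0.16 (R 4.3.3) by the quasi-likelihood test, with 1 coefficient per group over all 45 mice, Benjamini-Hochberg adjustment over all genes within each comparison and a threshold of 0.05. Standard errors and 95% intervals came from the same fit. The dose trend used steps 0 to 8. Log2 CPM had a prior count of 2. All tests were two-sided. Replicates are separate mice per the study, numbered here in accession order. The members, lists and tests were chosen with earlier results of these data known. Named genes were the 8 members, *Rps13* and *Cyp1a1*, up to 3 risen and 3 fallen genes per list with the smallest adjusted p at 30 µg/kg, the 3 genes most correlated with each member and the 5 steadiest genes. *Xist*, *Cd74*, *Actg1*, *Ywhaz* and *Polr2a* were named after their values were seen, and some genes the rule names are not reported here.

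Shared words were counted on both strands of the GENCODE M21 transcripts, with the shortest principal coding transcript of each gene. Genes that overlap the locus of the target were left out. That annotation shares the build of the counts and is later than the release the authors used. Primer sequences are those of the study. The edgeR fit was tested on simulated counts for 17061 genes with 200 changed. At 30 µg/kg it recovered 8% of 1.3-fold, 46% of 1.5-fold, 88% of 2-fold and 98% of 3-fold changes with 5 false calls. Of the 95% intervals 92% held the true change. Small changes were thus often missed in the simulation. In the real data 29.6% of genes were called at 30 µg/kg, so the adjustment for many tests was less strict there. The recovered shares are therefore not those of the real test. Alternatives were other scalings, DESeq2 1.42.0, other filters, fits of 2 groups alone and each mouse left out.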

Additional observations from a re-analysis of the deposited data

Results flagged for a closer look

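In 3 of 72 groups of 5 mice (8 genes by 9 doses), 1 mouse lay apart from the other 4 by more than Dixon's 95% limit, and chance flags about 1 in 20 groups. *Gapdh* was 7.21 CPM in 1 vehicle mouse (117 reads), against 2.97 to 3.84 CPM in the other 4. *Gapdh* was 4.25 CPM in replicate 5 at 10 µg/kg (121 reads), against 2.09 to 2.69 CPM in the others. *Pgk1* was 4.996 CPM in replicate 4 at 0.1 µg/kg (104 reads), against 9.08 to 10.5 CPM in the others.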

How the results depend on the processing

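With library size alone in place of TMM, log2 fold changes at 30 µg/kg were 0.54 for *Actb* (now called), -0.31 for *B2m* (no longer called), and 0.047 for *Gapdh*, 0.019 for *Tbp*, 0.085 for *Ppia* and 0.16 for *Gusb*, which changed sign without a call, and 2 members (*Hprt* and *Pgk1*) were called at 10 µg/kg. The trend of *B2m* was then not called, and with every gene of at least 1 read that of *Actb* was not. The averages at 30 µg/kg became 0.21 for the 8 members and 0.096 for the 4 without shared words, the latter with a changed sign (this set was chosen after seeing the data). *Pgk1* was not called with every gene of at least 1 read (0.42, adjusted p = 0.06695) or with the vehicle and 30 µg/kg mice alone (0.41, adjusted p = 0.05393), and the former and the fits of 2 groups called 0 members at 3 µg/kg. The fit of 2 groups called 1 at 10 µg/kg (*Gusb*), and DESeq2 called 4 in the test of any difference (*B2m* and *Ppia* added). Relative log expression factors, upper-quartile factors and filterByExpr changed no call. Leaving out 1 mouse gave between 1 and 3 members called at the highest dose, 0 to 1 at 3 µg/kg and 0 to 1 at 10 µg/kg (*Pgk1*, without vehicle replicate 5). It gave 2 to 4 for any difference and 3 to 5 for the trend. The 4 came without replicate 1 at 0.01 or replicate 2 at 0.1 µg/kg, and the 1 at 30 µg/kg (*B2m*) without its replicate 1. The change at 30 µg/kg then ranged from -0.57 to -0.41 for *B2m*, 0.24 to 0.34 for *Hprt*, 0.32 to 0.56 for *Pgk1* and -0.50 to 0.15 for *Gapdh*, positive only without vehicle replicate 3. The average of the 8 members ranged from -0.061 to 0.054, so its sign rests on single mice. No paired analysis was possible because the labels give the mice no replicate numbers shared between groups. Genes with few countable reads (*Gapdh*, *Ppia*, *Pgk1*, *Rps13*, *Actg1*) limit what can be seen, and a missing call for them is not evidence of stability.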
